A study of Mus musculus with 6 samples.

Results

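Genes named Zfp followed by a number are mouse zinc finger genes, and 205 of them form the group described here. They are the rows of the deposited table whose whole name is Zfp and a number, with a mean of at least 2 FPKM (fragments counted per kilobase of a transcript and scaled to library size) over the 6 libraries. Of the 12826 genes in the table, 283 carry such a name, with the pluripotency gene Zfp42 left out. The members were thus chosen by their measured mean FPKM, and their mean levels are a description. Just inside the limit lay Zfp192 (2.02 FPKM), Zfp74 (2.04 FPKM) and Zfp182 (2.04 FPKM), and just outside it lay Zfp933 (2.0 FPKM when rounded, from below), Zfp395 (1.98 FPKM) and Zfp248 (1.97 FPKM).

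The RNA came from ETX-embryos, which are embryo-like structures built in culture from mouse embryonic stem cells together with trophoblast and extraembryonic endoderm stem cells. All were untreated, grown in successive IVC media and made with a T/Brachyury-GFP reporter line, in which GFP follows the primitive streak gene T. After the trophoblast compartment had been removed, the embryonic compartment was cut lengthwise, and each piece gave 1 Smart-seq2 library. The piece without GFP is the prospective anterior domain and the piece with GFP the prospective posterior domain, for each of 3 individuals called A, B and C. The labels give no clone, age or stage in days, and a cut piece can hold any cell type that lay on its side.

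A classical zinc finger of the C2H2 type is a short loop in which a pair of cysteines and a pair of histidines hold a zinc ion. Strings of such fingers read DNA, each finger contacting a few bases. Many of these proteins also carry a Krüppel-associated box (KRAB), which recruits the corepressor Trim28 and, through it, histone and DNA methylation enzymes. In early embryos and embryonic stem cells KRAB zinc finger proteins are known for silencing retrotransposons and for protecting imprints. The genes lie in clusters that arose by tandem duplication, so neighbours are often similar in sequence.

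Every one of the 205 members was matched to a coding gene of the mouse annotation (GENCODE M21, build GRCm38), 196 by the same symbol and 9 by an older symbol. In their translated coding sequences, 178 had at least 3 copies of the C2H2 pattern, 16 had 1 or 2 copies and 11 had none. The median was 10 fingers, and Zfp462 had the most, with 33. The pattern was a pair of cysteines and a pair of histidines at the usual spacing, and 2.82% of 22500 mouse coding genes had 3 or more copies. A pattern for the core of the KRAB box (leucine, tyrosine, any 2 residues, valine, methionine, any residue, glutamate) was found in 95 members and in 1.30% of all coding genes. The pattern misses diverged boxes: it was not found in Zfp445, which is known as a KRAB protein. Chromosome 7 held 40 members, chromosome 17 held 34 and chromosome 8 held 16. For 108 members at least 1 adjacent coding gene also had 3 or more fingers, against 4.62% of all coding genes.

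Finger-coding sequences of 5 members are shown because they carry both the shared plan of the family and the limit on reading its neighbours apart. Each codes for the first classical finger of its protein (for Zfp960, the finger in the same place as in Zfp97) and is 84 bases of GRCm38 from the last exon, 5′ to 3′ on the coding strand, with the codons of the metal-binding cysteines and histidines in capitals. The Zfp97 unit lies at chr17:17144718-17144801 (plus strand, exon 4 of 4), the Zfp960 unit at chr17:17087503-17087586 (plus strand, exon 4 of 4) and the Zfp868 unit at chr8:69612131-69612214 (minus strand, exon 5 of 5). The Zfp157 unit lies at chr5:138456094-138456177 (plus strand, exon 5 of 5) and the Zfp568 unit at chr7:30022724-30022807 (plus strand, exon 10 of 10).
Zfp97: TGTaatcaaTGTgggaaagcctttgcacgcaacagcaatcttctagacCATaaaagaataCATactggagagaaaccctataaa
Zfp960: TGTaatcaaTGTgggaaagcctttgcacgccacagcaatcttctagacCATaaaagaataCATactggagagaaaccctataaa
Zfp868: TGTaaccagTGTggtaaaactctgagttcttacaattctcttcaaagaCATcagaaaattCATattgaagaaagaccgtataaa
Zfp157: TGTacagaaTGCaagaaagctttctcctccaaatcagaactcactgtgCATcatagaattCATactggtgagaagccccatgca
Zfp568: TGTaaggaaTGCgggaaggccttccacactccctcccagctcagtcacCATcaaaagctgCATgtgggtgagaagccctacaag
The units of the neighbours Zfp97 and Zfp960 differ by 1 substitution, A31C, counted from 1 at the first base shown. Against the same Zfp97 unit, Zfp868 differs at 31 positions, Zfp157 at 32 and Zfp568 at 34. Over the whole coding sequence of 1638 bases each, Zfp97 and Zfp960 share 1608 bases (98.2%).

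Such likeness bears on the measurements, because reads from near-identical stretches can be credited to either gene. The share of a member's transcript made of 50-base words that also occur in another gene had a median of 0.637%, and it exceeded 10% for 48 members. Words on either strand and in any other annotated gene were counted. The gene sharing most was thus not always a Zfp neighbour: it was E130218I03Rik for Zfp593 and Gm26790 for Zfp507. Among the genes described below the share was 84.5% for Zfp960, 83.1% for Zfp97, 100% for Zfp935, 55.5% for Zfp932, 52.4% for Zfp59 and 64.5% for Zfp593. It was 36.7% for Zfp532, 31.3% for Zfp330, 27.5% for Zfp507, 25.2% for Zfp106 and 23.1% for Zfp187. For Zfp704 it was 18.2%, for Zfp367 15.9%, for Zfp566 15.7%, for Zfp936 15.2% and for Zfp703 11.7%. Their levels are uncertain to that extent. The sources used here do not say whether counting used strand, so an antisense partner could also add to a level.

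The libraries differ in ways that touch every comparison below. T was at 0 in the anterior pieces of embryos A and B, and stood at 2.59 in posterior A and 4.05 in posterior B, on the log2(FPKM + 1) scale used throughout. In embryo C it ran against the labels, reaching 5.44 in the piece labelled anterior, whereas the piece labelled posterior had it at 0. The summed level of 8 streak and mesoderm markers nevertheless followed the labels, with anterior sums of 0.277, 7.38 and 45.0 FPKM and posterior sums of 280, 265 and 217 FPKM. Where 3 values are given in a row, here and below, they are those of embryos A, B and C in that order. Genes listed above 0 ranged from 9335 (anterior C) to 12141 (posterior B). Relative depth was inferred from the most common ratio to anterior A among values under 1 FPKM, which 27 to 66 genes per library shared. It rose from 1 in anterior A to 2.83 in posterior B, so that depth and domain run together, though narrowly in embryo C (1.43 anterior, 1.56 posterior). As further normalization is not stated, this ratio may not reflect depth alone. Anterior A stood apart from the other libraries, with Spearman correlations across tested genes of 0.50 to 0.61. Absolute depth is unknown. In such bulk pieces, fewer cells that use a gene and less RNA per cell cannot be told apart. The p-values draw on the spread among pieces of 3 individuals and also on the spread of other genes.

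As a group the Zfp genes were expressed at moderate levels in all 6 libraries. Their anterior medians were 2.05, 2.74 and 2.10, and their posterior medians 2.83, 2.79 and 2.61. In each library this lay below the median of the 10914 tested genes, those whose mean reached 1 FPKM, by 0.46, 0.70 and 0.76 in the anterior libraries and by 0.67, 0.58 and 0.80 in the posterior ones. The distance to other genes of the same class of mean FPKM was smaller. Against them the members' median was lower by 0.07, 0.32 and 0.14 in the anterior libraries and by 0.32, 0.25 and 0.24 in the posterior ones. The Spearman correlation over the 205 members ran from 0.21 (anterior A with posterior C) to 0.68 (posterior A with posterior B). The members were limited to means of at least 2 FPKM, so these values are not comparable with those over all tested genes. The median SD of a member over the 6 libraries was 1.22, and that of genes of like mean was 1.29.

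Values listed at 0 were spread unevenly over the libraries. Of the 205 members, 30, 10 and 39 were listed at 0 in the anterior libraries, compared with 0, 1 and 23 in the posterior ones. Among other genes of like mean the shares at 0 were higher in every library, for example 17.7% against 14.6% of members in anterior A and 2.34% against 0 in posterior A. Over all values, 8.37% of members' entries were at 0, compared with 10.4% for genes of like mean. Without embryo C the members' share was 5.0%. In all, 132 members were above 0 in all 6 libraries, 50 were at 0 in 1 library, 17 in 2, 5 in 3 and 1 in 4. The shares at 0 were lower at higher levels, from 13.7% for the 56 members with a mean of 2 to 4 FPKM (18.8% of other genes) to 2.08% for the 24 with 16 to 32 FPKM (3.66% of other genes). No member was at 0 in the 3 libraries of one domain and above 0 in the 3 of the other.

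**Figure D1:**
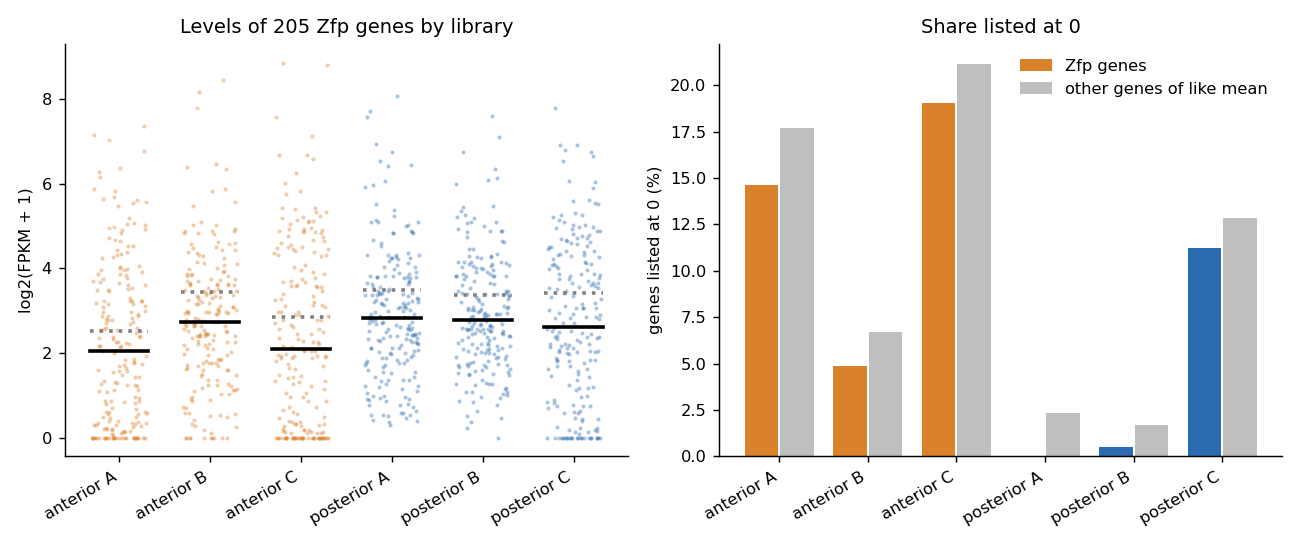
Left, log2(FPKM + 1) of the 205 Zfp genes in each library, 1 point per gene, with the members' median as a solid line and the median of all tested genes as a dotted line; right, percent of Zfp genes (coloured, anterior orange and posterior blue) and of other genes of like mean FPKM (grey) listed at 0. The members' medians lie between 2.05 and 2.83, below the dotted line in each library, and the shares of members at 0 run from 0 in posterior A to 19.0% in anterior C.

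Of the 8 most abundant members, 3 carried the KRAB pattern. Zfp187, now named Zscan26, had the highest mean (245 FPKM), at anterior values of 6.36, 8.44 and 8.80 and posterior values of 8.07, 6.76 and 7.79. Zfp367 followed with a mean of 164.0 FPKM, at 7.37, 6.47 and 8.86 (anterior) and 6.76, 7.10 and 4.66 (posterior). For both genes the ranges of the domains overlapped. Zfp207, known as BuGZ and needed for attaching chromosomes to the spindle, stood at anterior values of 6.17, 8.17 and 6.68 and posterior values of 7.57, 6.09 and 5.91, with no separation by domain or embryo. Zfp691 ran from 5.08 (posterior B) to 7.71 (posterior A), and Zfp948, a KRAB member, from 4.83 (posterior A) to 7.79 (anterior B). Zfp106, an RNA-binding protein needed by motor neurons, was the steadiest of these, between 5.45 and 6.44 with an SD of 0.37 over the 6 libraries. The 6 members with a mean of 64 FPKM or more (the genes just named) all had a lower mean log2 level in the posterior libraries, with a median difference of -0.43, although in embryo A alone their median was 0.78 (-1.48 in B and -0.78 in C). Of 1408 other genes at that level 71.3% were higher in the posterior libraries. Zfp317 and Zfp952, both KRAB members, completed the 8 highest, with means of 61.6 and 58.6 FPKM. Zfp952 lay between 4.30 (posterior B) and 6.65 (posterior C).

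Other members with low spread were less abundant. Zfp938 had the smallest SD of all members above 0 in every library (0.32), at anterior values of 2.35, 2.65 and 2.33 and posterior values of 2.79, 3.02 and 3.07. Its posterior values were all above its anterior ones, though by less than 1 unit. Zfp607 (SD 0.34), Zfp704 (SD 0.39) and Zfp606 (SD 0.44) stayed between 1.60 and 3.67. Zfp593, a ribosome assembly factor, had an SD of 0.45.

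The design asks which genes differ between the anterior and posterior pieces. Across the 205 Zfp genes no difference passed the test: limma with the embryo as a block called 0 members at an adjusted p under 0.05, and 0 of all 10914 genes tested (0%). The smallest adjusted p was 0.551 among members and 0.211 among all genes. At an unadjusted p under 0.05, 8 members were higher in the posterior pieces (3.90%, background 7.24%) and 2 in the anterior pieces (0.976%, background 0.788%). The share of members higher in the posterior pieces at that level was therefore lower than the share of all genes, and neither count is a set of calls. The posterior count was 13 with no replicate block, 4 without embryo A, 2 without B and 12 without C, and the anterior count was 1, 1 and 3 without these embryos. The posterior and anterior libraries did not overlap for 26 members with the posterior higher (12.7%, background 12.3%) and for 8 with the anterior higher (3.90%, background 3.77%). Both counts of non-overlap are near the background. The median standard error of a member's difference was 1.00 on the log2 scale, and in simulated data of this design changes of 4 log2 units were recovered in 0% of altered genes and changes of 6 units in 52.5%.

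The overall lean of the Zfp genes was close to that of the table with all 6 libraries. Of the members, 127 had a higher mean in the posterior and 78 in the anterior libraries (62.0%, background 64.9%), and the median posterior minus anterior difference was 0.42, against 0.42 for genes of like mean and 0.43 for all tested genes. Quantile normalization moved the median of all tested genes to -0.03, and with it 99 members were higher in the posterior and 106 in the anterior libraries, with a members' median of -0.07. With that scaling, 4 members were higher in the posterior and 6 in the anterior pieces at an unadjusted p under 0.05. For embryos A, B and C the members' median difference was 0.62, 0.24 and 0.11. All tested genes had 0.91, 0.02 and 0.17, so the Zfp genes leaned less than the table in embryo A and more in embryo B, without a test of either. The members' median was 0.15 without embryo A (0.17 for all tested genes), 0.47 without embryo B (0.62), 0.37 without embryo C (0.47) and 0.31 without the library anterior A alone (0.25). Wherever anterior A alone is left out, here and below, the fit has no replicate block and posterior A stays in without its pair. In all, 50 members had a higher value in the posterior piece of every embryo (24.4%, background 21.5%), and 17 in the anterior piece of every embryo (8.29%, background 8.25%).

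**Figure D2:**
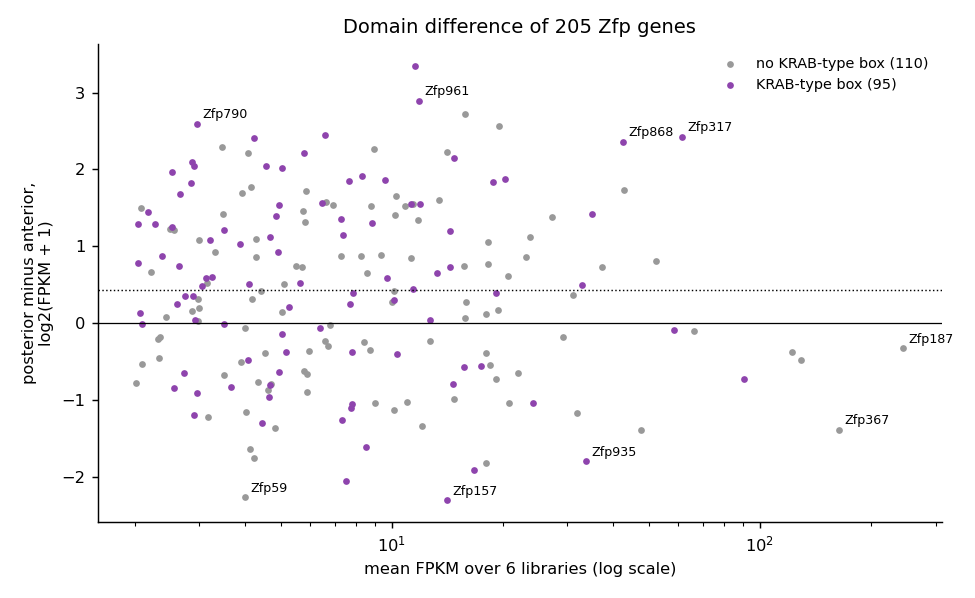
Posterior minus anterior difference in log2(FPKM + 1) against mean FPKM (log axis) for the 205 Zfp genes, purple for the 95 with the KRAB pattern and grey for the 110 without; the dotted line is the median of all tested genes (0.43). Points scatter on both sides of 0 at means up to 64 FPKM, and the 6 members above that lie below 0.

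Markers of other cell types differed among the libraries, in part along the domains. The summed level of 7 visceral endoderm markers was 523, 709 and 0 FPKM on the anterior side, compared with 97.2, 157 and 42.4 FPKM on the posterior side. Of these markers, Ttr and Rbp4 stood at 6.53 and 8.63 in anterior A, 6.84 and 9.16 in anterior B and 0 in anterior C. In posterior A, B and C they stood at 3.98 and 6.25, 5.41 and 6.58, and 5.02 and 0. The other markers were mixed, and Apoa1 followed the sum in embryos A and B. Hnf4a was higher in the posterior piece of each embryo (0.95, 1.94 and 0.14 against 0.41, 1.22 and 0). Amn was higher on the posterior side in embryo A, and Cubn and Apob in embryo B. The 8 markers of parietal endoderm and XEN cells summed to 1099, 1634 and 294 FPKM (anterior) and 336, 343 and 715 FPKM (posterior). Both endoderm sums were thus higher on the anterior side in embryos A and B and higher on the posterior side in embryo C. The 8 epiblast markers summed to 18.8, 48.2 and 230 FPKM on the anterior side, compared with 318, 207 and 353 FPKM on the posterior side. Tdgf1 and Dppa4 were at 0 in all anterior libraries, and Pou5f1, Nanog, Sox2 and Utf1 were also higher in the posterior piece of each embryo. Otx2 went the other way in embryo C (7.29 anterior, 4.15 posterior) and was level in embryo B (4.86 and 4.89). Fgf5 in embryo B stood at 3.57 (anterior) and 3.46 (posterior). The 7 trophoblast markers in the table summed to 299, 443 and 301 FPKM (anterior) and 267, 299 and 623 FPKM (posterior). These sums had no common direction, and Krt18 was the highest of the markers in each library. Single markers differed: Gata3 and Hand1 were higher in the anterior piece of each embryo, and Tfap2c in the posterior piece of each. Krt8, Krt18 and Esx1 were mixed, and Elf5 was at 0 in every library but posterior A and B. The part of these mixtures and of depth in any Zfp value was not tested.

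Of the 6 members with the smallest p among those higher in the posterior piece of every embryo, 4 carried the KRAB pattern, as did 95 of all 205. Zfp560 and Zfp566 were also among the 8 with an unadjusted p under 0.05, but both were at 0 in both pieces of embryo C and are named here after their values were seen. Zfp868 (chr8:69610654-69625557, 9 fingers) stood at anterior values of 4.35, 3.49 and 2.98 and posterior values of 6.93, 6.14 and 4.81. Each posterior value exceeded each anterior one, with a difference of 2.36 ± 0.77 and a limma adjusted p of 0.551. Here and below ± gives limma's moderated standard error, which draws on the spread of other genes as well as the 3 pairs. Zfp961 (chr8:71951048-71970333, 11 fingers) was at 2.41, 2.18 and 0 (anterior) and 4.26, 4.89 and 4.14 (posterior), a difference of 2.90 ± 0.98 with a limma adjusted p of 0.566. The groups did not overlap here either, and the 3 posterior values lay within 1 unit of each other. Zfp790 (chr7:29811437-29832042, 12 fingers) was at 0.21, 0 and 0 (anterior) and 3.41, 2.08 and 2.52 (posterior), a difference of 2.60 ± 0.90 with the same adjusted p. It reached the mean of 2 FPKM that made it a member only through its posterior values, so its direction is in part set by the choice of members.

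Zfp423, Zfp191 and Zfp317 completed the posterior group. Zfp423, a many-fingered partner of Smad proteins in BMP signalling, stood at anterior values of 0.36, 1.12 and 0.14 and posterior values of 3.37, 2.52 and 2.61, a difference of 2.29 ± 0.95 (limma adjusted p 0.614). Its groups did not overlap, but like Zfp790 it reached the mean of 2 FPKM only through its posterior values. Zfp191, now Zfp24 and known for its part in myelination, was at 0.95, 4.33 and 0.31 (anterior) and 3.80, 4.74 and 5.21 (posterior). Anterior B lay among the posterior values, and the difference of 2.72 ± 1.09 was 1.64 without embryo C. Zfp317 ran from 1.22, 5.57 and 4.46 in the anterior to 6.43, 7.60 and 4.50 in the posterior libraries. Its paired differences were 5.21, 2.03 and 0.04, so that most of the mean of 2.43 ± 1.01 came from embryo A, and without that embryo it was 1.03.

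The 6 members with the smallest p in the other direction were higher in the anterior piece of each embryo. Zfp157, a KRAB gene (chr5:138441458-138460900, 11 fingers), stood at anterior values of 5.19, 2.75 and 5.12 and posterior values of 1.85, 2.24 and 2.05. The posterior values were close together and all below the anterior ones, with a difference of -2.31 ± 1.00 and a limma adjusted p of 0.617. Zfp59 was at 3.61, 2.22 and 2.96 against 0.43, 1.48 and 0.08, a difference of -2.27 ± 1.00. Its groups did not overlap, but its transcript shares much of its sequence with a gene model named Gm7452. Zfp59 also reached the mean of 2 FPKM only through its anterior values, so its direction is in part set by the choice of members. Zfp935 was at 7.05, 4.80 and 3.70 (anterior) and 4.24, 3.40 and 2.52 (posterior), which overlapped. Its words are all shared with another gene model.

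Zfp408, a gene of retinal vessel development, stood at anterior values of 5.87, 4.29 and 3.62 and posterior values of 3.81, 2.46 and 2.04. In each embryo its anterior value was higher, by 2.06, 1.82 and 1.58, which is an even difference although the groups overlapped. Zfp507 was at 3.65, 2.98 and 2.05 (anterior) and 0.91, 1.58 and 0.90 (posterior), with no overlap. Like Zfp59, it reached the mean of 2 FPKM only through its anterior values. Zfp609, a partner of the cohesin loader Nipbl, was at 7.16, 5.83 and 4.47 against 5.0, 3.98 and 4.32, with embryo C at a difference of only -0.15. In these 3 genes, and in Zfp157, Zfp59 and Zfp935 above, anterior A was the highest of the 6 libraries. Without that library the differences were -1.18 for Zfp408 (-1.82 with it), -0.72 for Zfp609 (-1.39 with it) and -1.38 for Zfp507 (-1.76 with it). They were -0.86 for Zfp935 (-1.80 with it), -1.89 for Zfp157 (-2.31 with it) and -1.93 for Zfp59 (-2.27 with it).

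**Figure D3:**
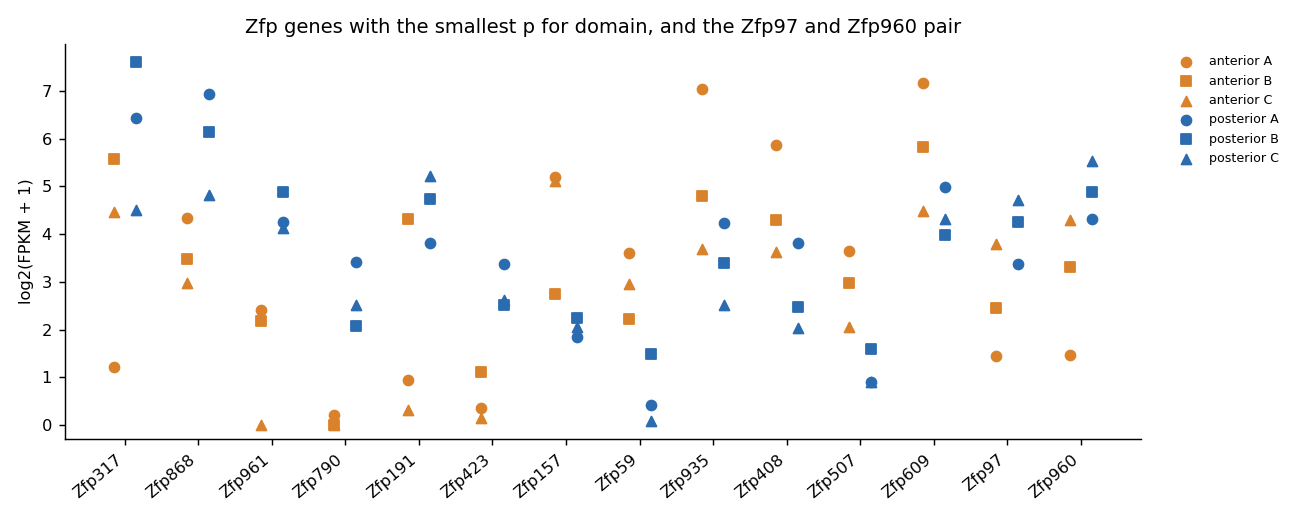
Log2(FPKM + 1) of the 12 Zfp genes with the smallest p for domain among those that differ in the same direction in all 3 embryos (6 per direction), and of Zfp97 and Zfp960; 1 point per library, anterior orange, posterior blue, and 1 symbol per embryo. Posterior points lie above all anterior points for Zfp868, Zfp961, Zfp790 and Zfp423 and below them for Zfp157, Zfp59 and Zfp507, while no gene passed the adjusted test.

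The near-identical neighbours of chromosome 17 were higher in the posterior pieces of all 3 embryos. Zfp960 stood at anterior values of 1.47, 3.30 and 4.30 and posterior values of 4.32, 4.88 and 5.53. Zfp97 was at 1.44, 2.46 and 3.79 against 3.37, 4.25 and 4.71, where anterior C lay above posterior A. Their order over the 6 libraries was alike, with anterior A lowest and posterior C highest, and since reads can be shared between the pair, the likeness is no independent measurement. Over the 39 pairs of adjacent members the median Pearson correlation over 6 libraries was -0.06, with 19 pairs positive (48.7%). Pairs on different chromosomes had a median of 0.03 and 52.4% were positive.

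Differences among the 3 embryos were likewise not called. Limma's F test gave 0 members at an adjusted p under 0.05 (0% of all tested genes), and 5 at an unadjusted p under 0.05 (2.44%, background 2.77%). Zfp467, a regulator of the choice between fat and bone cells, stood at 3.61 and 4.85 in the 2 pieces of embryo A, at 0.49 and 3.81 in embryo B and at 0 in both pieces of embryo C. Zfp212 was at 5.47 and 2.61 in embryo A, 3.09 and 2.56 in B and 0 in both pieces of C. Zfp599 was at 0.85 and 2.28 in A, 0.58 and 1.66 in B and 5.05 and 4.32 in C, so that both pieces of embryo C lay highest. Zfp618 was at 4.24 and 1.96 in A, 0 and 0.24 in B and 0 in both pieces of C. Each of these 4 had an adjusted p of 0.996.

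Members with a described role are taken in groups. Of a list of 35 such genes, 28 were members, and 0 of the 28 passed the limma test in either direction, or reached an unadjusted p under 0.05. The domains did not overlap for 5 of the 28 with the posterior higher (background 12.3%) and for 2 with the anterior higher (background 3.77%). Among those that guard imprints and silence retroelements, Zfp57, which binds a methylated motif at imprinted loci, stood at anterior values of 2.0, 2.94 and 0.97 and posterior values of 2.93, 1.17 and 1.78. Its partner in imprint maintenance, Zfp445, was at 4.67, 2.73 and 1.35 against 3.64, 3.88 and 2.04. Both genes were present in every library and overlapped between domains.

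Zfp568, which represses a placental promoter of Igf2, was at 2.53, 2.68 and 2.28 (anterior) and 3.57, 3.75 and 4.07 (posterior). The groups did not overlap and values within each were close, but the difference of 1.30 ± 0.92 had a limma adjusted p of 0.70. Zfp809, which silences retroviruses in embryonic stem cells, ranged from 1.57 (anterior A) to 5.09 (anterior C). Zfp932, which acts on endogenous retroviruses, ranged from 2.47 (anterior A) to 5.18 (posterior B).

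Regulators of stem cell state and of chromatin formed the next group. Zfp281, a regulator of the exit from naive pluripotency, stood at anterior values of 1.59, 3.63 and 5.84 and posterior values of 4.25, 4.99 and 4.40. Anterior A was lowest and anterior C highest. Zfp706, a factor that holds back Klf4 in embryonic stem cells, was at 2.73, 5.03 and 4.96 (anterior) and 5.96, 6.35 and 5.60 (posterior), without overlap. Zfp462, which takes part in heterochromatin with the histone methyltransferases Ehmt1 and Ehmt2, went the other way. It was at 3.91, 3.62 and 3.68 (anterior) and 2.99, 2.13 and 2.96 (posterior), a difference of -1.05 ± 0.92. The groups did not overlap.

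Zfp217, which works with the Kdm1a and CoREST complex, varied little, from 3.75 (anterior B) to 4.89 (anterior C). Zfp410, an activator of the remodeller gene Chd4, stood at anterior values of 1.33, 4.13 and 1.68 and posterior values of 3.79, 3.37 and 4.58, which overlap through anterior B. Zfp532, Zfp592 and Zfp687 belong to one chromatin complex. Zfp592 was at 1.13, 1.77 and 0 (anterior) and 2.22, 1.87 and 3.87 (posterior), without overlap. It reached the mean of 2 FPKM only through its posterior values, so its direction is in part set by the choice of members. Zfp532 ran from 1.81 (posterior C) to 3.58 (anterior C), and Zfp687 from 1.78 (anterior A) to 4.10 (posterior C). Their differences were 1.69 ± 1.07 (Zfp592), 0.65 ± 0.99 (Zfp687) and -0.66 ± 1.00 (Zfp532), and differences between the 3 genes were not tested.

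Promoter binders and other DNA-binding members varied in level. Zfp143, which binds many promoters, was listed at 0 in posterior C and stood at 0.31 in anterior A and at 1.76 to 2.40 in the other libraries. Zfp148, a GC-box binder, stood at anterior values of 2.59, 2.56 and 2.79 and posterior values of 2.86, 4.07 and 3.64, with the groups just apart. Zfp219 lay between 0.18 (anterior A) and 2.61 (anterior C). Zfp131, a member with a BTB domain, was at 0.80 in anterior A and between 4.31 and 5.54 in the other 5 libraries. Zfp292 was at 4.92, 4.49 and 5.13 (anterior) and 3.81, 4.14 and 3.47 (posterior), again with no overlap. Zfp703, a corepressor, was at 3.29, 2.45 and 1.46 against 0.87, 1.09 and 1.57, where anterior C lay below posterior C.

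A last group acts on RNA, ribosomes and protein modification. Zfp36, known as tristetraprolin, has CCCH fingers that bind AU-rich mRNAs for decay, and no C2H2 finger was found in it. It stood at 0, 2.18 and 0.38 (anterior) and 0.58, 2.39 and 4.78 (posterior). Posterior C was thus highest, and posterior A was close to the low anterior libraries. Zfp326, which links splicing to transcription, ran from 3.46 (posterior A) to 4.83 (anterior A). Zfp622, a ribosome maturation factor, was at 2.26, 3.82 and 2.27 (anterior) and 4.04, 3.95 and 4.38 (posterior), without overlap. Zfp330 was high in all libraries, from 4.84 (anterior C) to 6.53 (posterior C). Zfp451, a ligase for SUMO, ran from 1.13 (posterior C) to 3.87 (posterior B), and Zfp318 from 1.06 (anterior C) to 3.66 (anterior B).

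**Figure D4:**
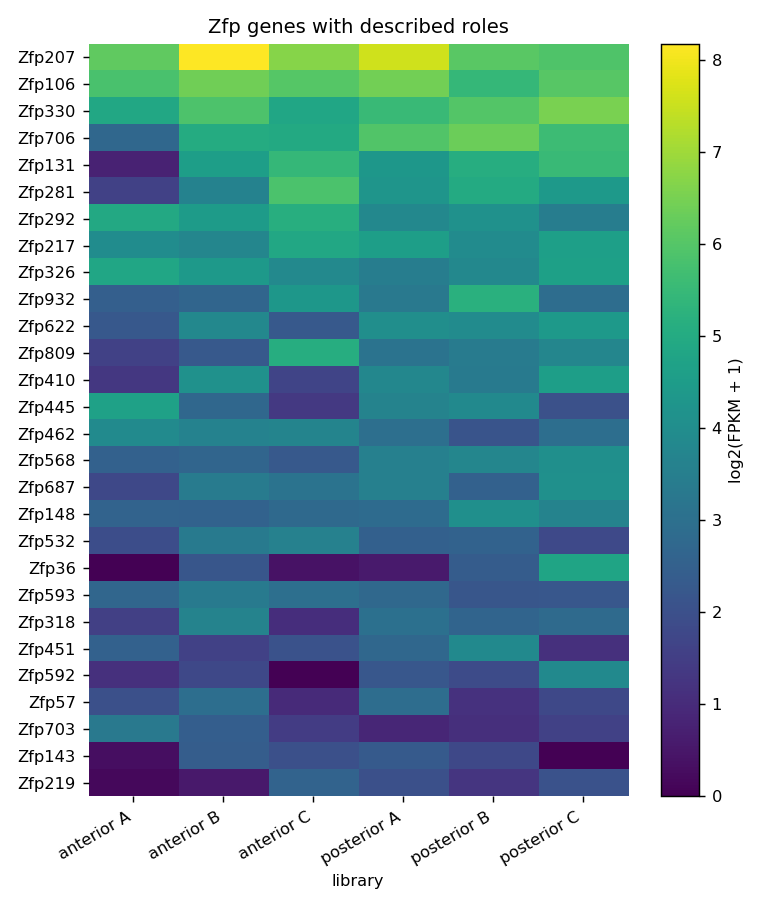
Log2(FPKM + 1) of the 28 members with a described role (rows, ordered by mean) in the 6 libraries (columns); the colour scale runs from 0 (dark) to above 8 (yellow). Zfp207, Zfp106 and Zfp330 are at 4.84 or higher in each library, whereas Zfp36, Zfp592 and Zfp143 each reach 0 in 1 library.

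Members with and without the KRAB pattern are described side by side. The 95 KRAB members had a median posterior minus anterior difference of 0.59, and the 110 others 0.23, where genes of like mean had 0.41 and 0.42. A higher posterior value in every embryo was found for 31 KRAB members (32.6%) and 19 others (17.3%), against a background of 21.5%. Non-overlap with the posterior higher was found for 17 KRAB members (17.9%) and 9 others (8.18%), against 12.3%. The order of the medians was the same without each embryo, at 0.41 and 0.08 without A, 0.87 and 0.32 without B, and 0.48 and 0.31 without C, and at 0.39 and 0.19 without the library anterior A alone. The members without the pattern changed sign with scaling: after quantile normalization the medians were 0.08 and -0.18, with all tested genes at -0.03, and after centring they were 0.27 and -0.08, with all tested genes at 0.11. Without the 48 members that share over 10% of their words, the medians were 0.73 for 66 KRAB members and 0.42 for 91 others. The order also depended on level. By class of mean FPKM the medians, KRAB members first, were 0.74 and 0.15 at 2 to 4 FPKM. At 4 to 8 FPKM they were 0.39 and 0.15. The order was reversed at 8 to 16 FPKM (0.69 and 0.74) and at 16 to 32 FPKM (-0.08 and 0.14). At 32 to 64 FPKM, with 6 and 4 genes, they were 0.96 and 0.77. These are counts and medians with no test, and the split was made with earlier results of these data known.

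Many members drew most of their summed level from a single library. For 74 members (36.1%) more than 50% of the FPKM summed over 6 libraries came from 1 library, compared with 28.0% of genes of like mean. Among KRAB members the share was 48.4% (46 of 95), with 30.1% for genes of like mean, and among the others it was 25.5% (28 of 110), with 26.2%. The KRAB share was above that of other genes in each class of level from 2 to 64 FPKM, for instance 61.3% of 31 genes against 44.2% at 2 to 4 FPKM and 35.0% of 20 genes against 19.7% at 8 to 16 FPKM. Posterior C supplied the largest number of these 74 members (27), followed by anterior C (16) and anterior A (12). With posterior C left out, 36.1% of members and 34.3% of genes of like mean passed the limit, and 49.5% of KRAB members against 36.4%. Without posterior C the share over all members thus lay close to that of genes of like mean.

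**Figure D5:**
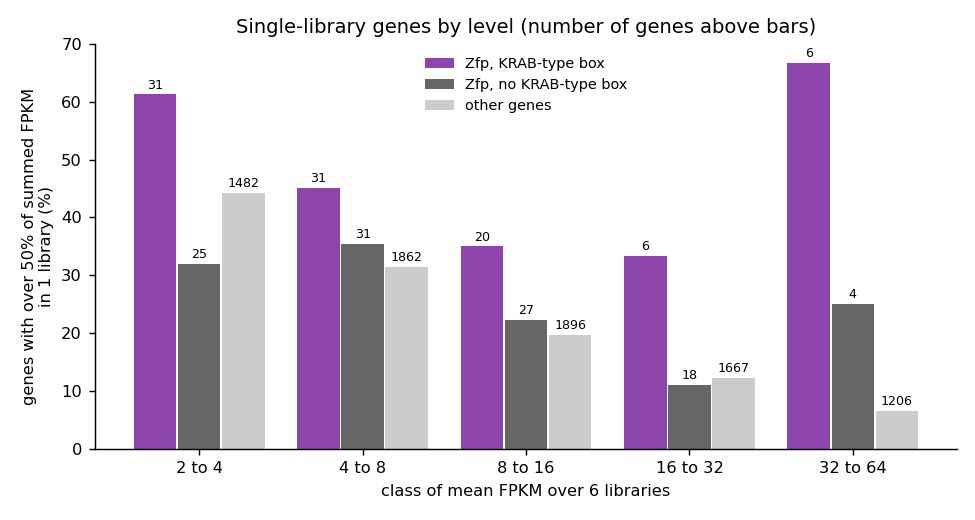
Percent of genes with over 50% of their summed FPKM in 1 of the 6 libraries, by class of mean FPKM, for Zfp genes with the KRAB pattern (purple), Zfp genes without it (dark grey) and other genes (light grey), with the number of genes above each bar. The purple bars run from 33.3% to 66.7%, and those at 16 to 32 and 32 to 64 FPKM stand for 6 genes each. The class of 64 FPKM and over, with 1 KRAB gene and a share of 0%, is not plotted.

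More extreme cases were few. For 8 members (3.90%) over 80% of the summed FPKM lay in 1 library, against 5.22% of genes of like mean. Of the 8, 5 were highest in posterior C. Among the 95 KRAB members 1, Zfp936, passed this limit (1.05%, with 5.77% for genes of like mean). Among the 110 others 7 passed it (6.36%, with 4.74%). The KRAB share was thus below that of genes of like mean here, unlike at the lower limit used above. Zfp936, chosen for this after its values were seen, stood at anterior values of 0.30, 0.32 and 0.49 and posterior values of 0.40, 0.84 and 5.61, with 96.0% of its FPKM in posterior C. Zfp646, chosen in the same way, was at 1.09, 1.96 and 0 (anterior) and 1.54, 2.47 and 6.75 (posterior), with 91.1% in posterior C. A mean difference between domains for such genes rests on 1 library.

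Corepressor and heterochromatin genes were taken as a list of 30, of which 29 were in the table. The list holds partners of KRAB proteins such as Trim28 and Setdb1, and also general heterochromatin genes such as Suv39h1, Ehmt1 and Atrx. Of the 29, 23 had a higher mean in the posterior (79.3%, background 64.9%) and 6 in the anterior libraries, and the median difference was 0.77 (0.43 for all tested genes). The median level of the list was 32.3 FPKM. Of other genes at 32 to 64 FPKM 69.8% were higher in the posterior libraries (median difference 0.51), and of those at 64 FPKM and over 71.3% (0.45). The median difference of the list was 0.35 without the library anterior A (0.25 for all tested genes) and 0.26 without embryo A (0.17). None passed the limma test, and 2 reached an unadjusted p under 0.05, both higher in the posterior pieces, where the background was 7.24%. After quantile normalization the split was 18 to 11 (62.1%, with 49.0% of all tested genes higher in the posterior libraries) and the median 0.32. Trim28, the corepressor that binds the KRAB box, stood at anterior values of 3.34, 4.33 and 5.50 and posterior values of 6.51, 6.15 and 7.55. The groups did not overlap, and the difference was 2.34 ± 0.72 with a limma adjusted p of 0.551. Setdb1, the H3K9 methyltransferase that Trim28 recruits, was at 0.65, 2.18 and 2.36 (anterior) and 3.14, 3.93 and 4.32 (posterior), a difference of 2.07 ± 0.95 with a limma adjusted p of 0.617. Mta2, a subunit of the NuRD deacetylase complex, was at 0, 3.30 and 0.50 against 3.66, 3.00 and 5.53, with anterior B above posterior B. The differences of Uhrf1, which maintains DNA methylation, and Kdm1a, a histone demethylase, were 1.18 ± 0.82 and 1.04 ± 0.77. Without the library anterior A they were 0.36 and 0.45, and without embryo A 0.18 and 0.48. The difference of Mta2, 2.80 ± 1.20, was 4.35 without embryo B and 1.68 without embryo C.

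Other zinc finger name families leaned variously. The median posterior minus anterior difference was 0.24 over 24 tested genes with names starting with Zbtb, 0.86 over 6 Zscan genes, 0.12 over 5 Zkscan genes and 1.00 over 18 genes named Zfp with a letter suffix. Small numbers limit these medians, and no test of the difference from the 205 Zfp genes was made.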

How the data were processed

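The table the authors deposited holds log2 values, log2(FPKM + 1), for 12826 genes in 6 libraries. The scale was read from the values: raising 2 to the value and subtracting 1 gave at most 6 significant digits for 99.1% to 99.5% of entries above 3 per library. Ensembl version 38.77 and HTSeq-count are named per the labels' protocols, and TopHat2 2.0.4, Cufflinks 2.0.2 and mm10 per the submitters' processing notes. The sources used here do not say which tool gave the values or how they were further normalized. The planned test assumed FPKM, and the deposited log2 values were used unchanged. Because values are scaled to each library and per length, a gene that takes a large share of a library lowers all others, and short or shared transcripts are less certain.

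All 10914 genes reaching a mean of 1 FPKM were fitted with limma 3.58.1 in R 4.3.3, two-sided, with the embryo as a block, a mean-variance trend and Benjamini-Hochberg adjustment over all of them at 0.05 (2 residual and 7.50 prior degrees of freedom). The pairing comes from the dissection, since both pieces are of one individual, and the deviations of paired pieces correlated at -0.07, 0.04 and -0.03. Genes of like mean are other genes in classes of mean FPKM, weighted to the members' class sizes. The fit was tested on simulated data. Sequences, finger counts and shared words were read from GENCODE M21 (GRCm38), longest coding transcript, with older symbols matched through RefSeq GRCm38.p6.

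Members and lists were chosen with earlier results of these data known. Genes named are the 8 highest, the 6 with the smallest p per domain among those differing in the same direction in 3 embryos, the 4 with the smallest p among embryos, members of a list of 35 genes with described roles, the 6 with the smallest SD, those nearest the limit of 2 FPKM, and, of the corepressor list, Trim28, Setdb1 and the 3 with the smallest p. Zfp97, Zfp960, Zfp936, Zfp646, Zfp560 and Zfp566 were added after their values were seen. Alternatives were the scaling, the filter, the pseudocount, the trend, the block, the member rule and each embryo left out.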

Additional observations from a re-analysis of the deposited data

How the results depend on the processing

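No Zfp gene passed an adjusted p of 0.05 under any alternative tried, and the 17 single genes tested kept their direction, with adjusted p between 0.441 and 0.985. The members' median difference, 0.42 as reported, was -0.068 after quantile normalization, the only reversal, and 0.11 after centring on genes above 0 in all libraries. It ranged from 0.15 to 0.47 with each embryo left out. The count higher in the posterior pieces at an unadjusted p under 0.05 was 8, and it was 13 with no replicate block, 4 after quantile normalization, 5 after centring and 2 to 12 with each embryo left out (4 without A, 2 without B). The count higher in the anterior pieces was 2, and it was 1 with a filter at 2 FPKM, 0 with a pseudocount of 0.1, 6 after quantile normalization, 4 after centring and 1 to 3 with each embryo left out (1 without A, 1 without B). Without the block no other call changed. The count among embryos was 5, and it was 3 with a filter at 2 FPKM, 4 with a pseudocount of 0.1 or after quantile normalization, 6 with no filter and 7 after centring or with no trend. The share of values at 0, 8.37%, was 5.0% to 11.2% with each embryo left out, 5.28% for members with a mean of at least 5 FPKM, 5.15% for members chosen by mean log2, and 15.8% when values under 0.5 FPKM were counted. The members' level relative to the library median, -0.46, -0.70 and -0.76 on the anterior side (embryos A, B, C) and -0.67, -0.58 and -0.80 on the posterior side, became -0.075, -0.32, -0.14, -0.32, -0.25 and -0.24 against genes of like mean. The cause of these moves was not tested. With anterior A alone left out and no replicate block, an alternative chosen after seeing the data, the median difference was 0.31. In that fit 6 members were higher in the posterior pieces at an unadjusted p under 0.05. With 3 pairs and unknown absolute depth, a value of 0 is only a listing.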
